A study of Mus musculus with 8 samples.

Results

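Collagen chain genes were examined in mouse kidney injured by ischemia-reperfusion (I/R), a period without blood flow that ends when the flow returns. Members were the genes whose symbol has the form Col, a type number, a and a chain number, with a total of at least 80 counts over the 8 libraries. Of 44 such symbols among 25239 genes, 31 met the threshold, and they were grouped as 9 fibrillar chains, 8 basement membrane chains (types IV, XV and XVIII) and 14 other chains. The threshold used the total count and not the comparison. Col24a1, with 117 counts, was the member nearest to it, and Col6a4, with 73 counts, was the nearest chain left out.

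The 8 libraries were made from kidney tissue, 4 labelled wild type (control 1 to 4) and 4 labelled as myeloid-specific FoxO1 knockouts (knockout 1 to 4). FoxO1 is a forkhead transcription factor. Conditional deletion is described in Lyz2-CreERT2 FoxO1flox/flox mice aged 8 to 10 weeks, in which Lyz2, a gene of macrophages, monocytes and neutrophils, drives a Cre recombinase that tamoxifen activates. Tamoxifen was injected at 75 mg per kg on 5 days, and this text is attached to all 8 samples, so whether the wild type mice carried Cre or received tamoxifen is not given in the sources used here. In both groups the surgery took out the right kidney and clamped the vessels of the left for 35 minutes. The time from reperfusion to collection is not given in the sources used here and uninjured kidneys were not analysed here. Collagenase was used to digest the tissue of both groups ahead of RNA extraction. Whether each library is a separate mouse is not stated, so the p-values reflect only library-to-library spread, which may be technical in part. In bulk tissue, fewer cells of a type and less RNA per cell cannot be told apart.

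Collagens are trimers of 3 chains wound into a triple helix. Fibrillar collagens, chiefly types I, III and V, form the tensile fibres of the interstitium and are made in large part by fibroblasts and pericytes. Type IV collagen forms the sheet-like network of basement membranes: the chains of Col4a1 and Col4a2 occur in nearly every basement membrane, while those of Col4a3, Col4a4 and Col4a5 form the network of the mature glomerular basement membrane and are made there by podocytes. Type VI collagen forms beaded microfilaments between fibrils and basement membranes. Accumulation of collagen in the interstitium is the hallmark of kidney fibrosis, which can follow an acute injury.

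The chains with the smallest p-values were Col6a1 and Col6a2 of type VI collagen, which are neighbours on mouse chromosome 10. The 250 bases before their annotated start sites are printed here because both genes rose together, with the same window of Col23a1, the chain with the largest fold change. The sequences are from RefSeq on build GRCm38.p6, each read 5′ to 3′ on the strand of its gene. Col6a1 lies at chr10:76726045-76726294 on the minus strand, Col6a2 at chr10:76623631-76623880 on the minus strand (the more upstream of its 2 listed start sites), and Col23a1 at chr11:51289670-51289919 on the plus strand. Capitals mark GTAAACA, a forkhead consensus, or the GC box GGGCGG, on either strand.
Col6a1: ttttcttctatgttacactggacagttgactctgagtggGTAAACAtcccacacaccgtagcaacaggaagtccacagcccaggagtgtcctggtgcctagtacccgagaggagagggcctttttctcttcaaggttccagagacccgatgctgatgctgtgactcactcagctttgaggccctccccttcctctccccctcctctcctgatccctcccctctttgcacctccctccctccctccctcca
Col6a2: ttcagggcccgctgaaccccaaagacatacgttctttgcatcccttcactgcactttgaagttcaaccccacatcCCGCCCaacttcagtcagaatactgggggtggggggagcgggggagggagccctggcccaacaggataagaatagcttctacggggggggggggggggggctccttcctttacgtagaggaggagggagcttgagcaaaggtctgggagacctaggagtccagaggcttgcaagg
Col23a1: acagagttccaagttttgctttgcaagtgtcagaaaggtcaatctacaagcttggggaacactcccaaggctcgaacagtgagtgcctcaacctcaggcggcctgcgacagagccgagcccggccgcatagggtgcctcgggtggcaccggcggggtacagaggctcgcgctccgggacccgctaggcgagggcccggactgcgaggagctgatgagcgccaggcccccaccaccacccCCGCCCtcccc
The Col6a1 window held GTAAACA 211 bases before the start site, and no GC box. The Col6a2 window held a GC box 175 bases before its start, and the Col23a1 window one that lay 11 bases before its start. The window of the other Col6a2 start site, not printed here, held 3 GC boxes, at 67, 15 and 11 bases before that start.

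Windows of this kind were at hand for 25 of the 31 members, with 27 start sites. GTAAACA occurred in 1 of these 27 windows (3.7%) and in 3.17% of 32851 mouse windows of the same length. The GC box was in 16 of the 27 (59.3%) and in 32.7% of all windows, the TATA box TATAAA in 14.8% and 12.4%, and the CCAAT box in 33.3% and 33.8%. Both strands were searched, and none of the 4 motifs contains another. The members' windows were also richer in GC, with a median of 59.6% against 52.4% for all windows. A match describes the letters and does not show that a factor binds there.

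**Figure D1:**
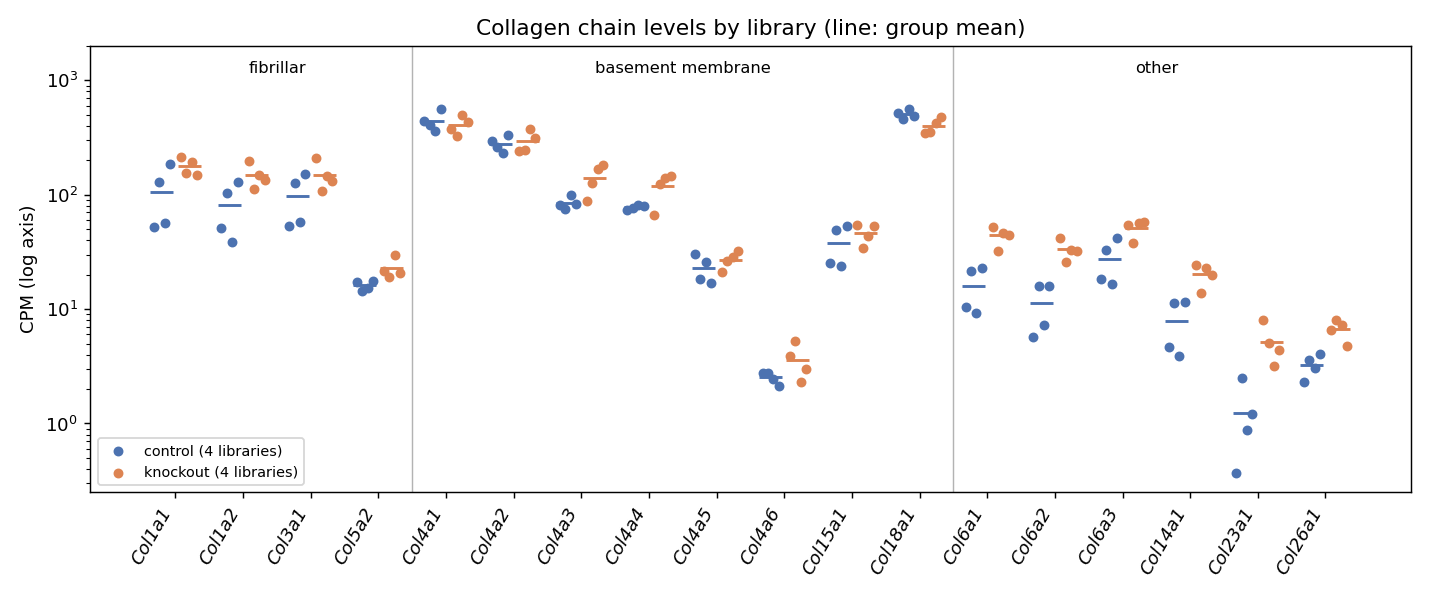
Level of 18 collagen chains in each library, in CPM on a log axis. Points are the 4 control and 4 knockout libraries and lines are group means. For Col6a1, Col6a2, Col14a1, Col23a1, Col26a1 and Col5a2 every knockout library lies above every control library.

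Levels are given as CPM, counts scaled by library size with TMM factors, and levels of different genes are compared only as TPM, in which counts are also divided by the deposited gene length. Library totals ran from 29044405 to 35530421 counts, and the 31 chains took between 0.1729% and 0.2609% of the counts of a library. Intervals from such depths cover counting error only, since PCR copies of a molecule could not be removed. Foxo1 itself, counted over the whole gene and all kidney cells, was not lower in the libraries labelled knockout: it lay between 33.0 and 34.45 CPM in the controls and between 39.27 and 42.88 CPM in the knockouts (log2 fold change 0.29 ± 0.09 SE, adjusted p = 0.0647 in edgeR). The count does not test deletion within myeloid cells, and the groups are named here by their labels.

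Across all 15000 genes tested, edgeR's quasi-likelihood test called 967 genes higher in the knockouts (6.45%) and 942 lower (6.28%) at an adjusted p under 0.05, and the median log2 fold change was -0.01. All 31 collagen chains passed the filter on low counts. Of these, 6 rose in the knockouts: Col6a1, Col6a2, Col14a1, Col23a1 and Col26a1 of the other chains, and Col4a3 of the basement membrane chains. No chain was called lower by this edgeR fit or by DESeq2, which called 9 higher. The count of 6 became 2 without control 3, namely Col6a1 and Col6a2, and 3 without knockout 2, knockout 3 or knockout 4. At an unadjusted p under 0.05, edgeR had 11 of 31 chains higher and 1 lower, which was Col18a1, against 14.5% of all genes tested higher and 14.6% lower. The log2 fold change was above 0 for 24 chains and below 0 for 7, with a median of 0.45. The medians were 0.45 for the fibrillar chains, 0.26 for the basement membrane chains and 0.70 for the others. After removal of each library's trends with gene length and GC content, the median over all chains was 0.29. The class medians were then 0.29, 0.16 and 0.53, in the same order. With a library left out, the median over all chains ran from 0.30 without control 3 to 0.54 without control 4.

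The groups did not overlap for 7 chains, all higher in the knockouts: the 5 other chains that rose, with Col13a1 and Col5a2. Among all genes tested, 11.1% did not overlap in that direction, and 10.6% did not overlap in the lower direction, against 0 of 31 chains.

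**Figure D2:**
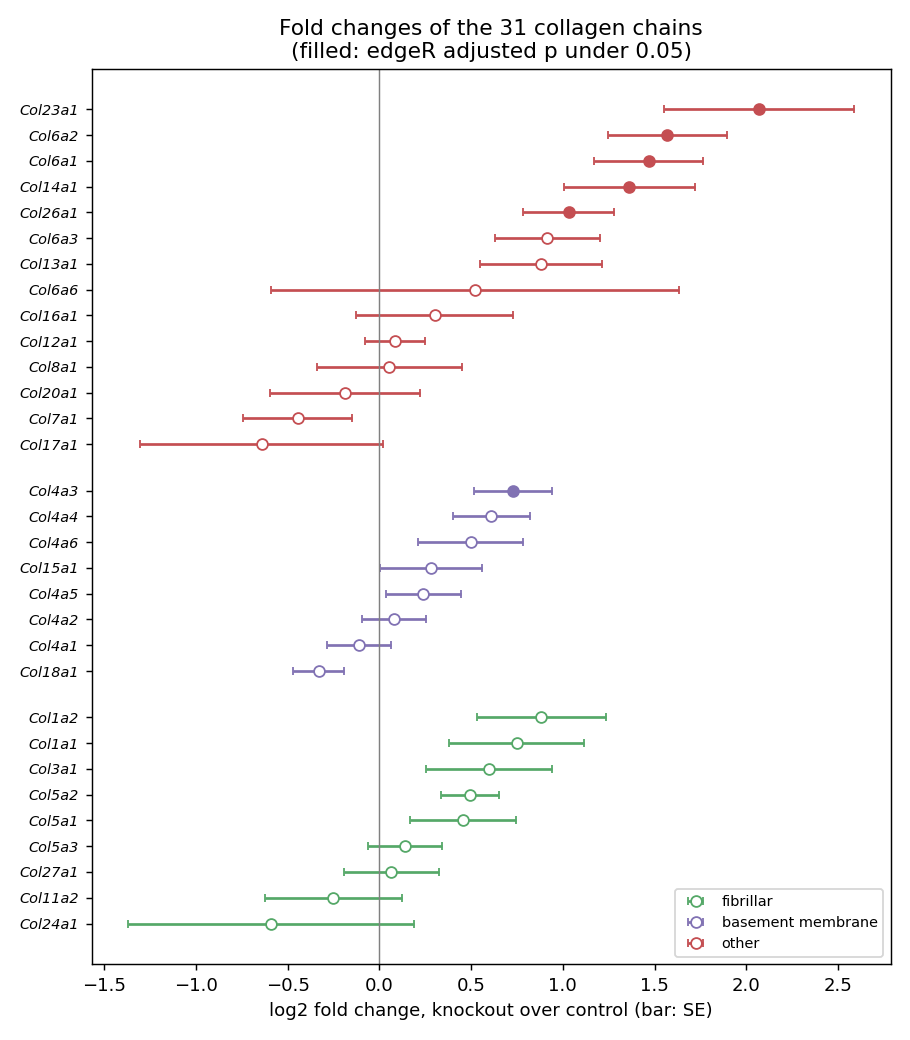
Log2 fold change of each of the 31 chains, knockout over control, with its standard error, ordered within the 3 classes. Filled points are the 6 chains with an edgeR adjusted p under 0.05, and 5 of these are in the class of other chains.

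Type I collagen, the main fibril of scar and interstitium, is made of 2 chains of Col1a1 and 1 of Col1a2. Col1a1 stood, in the order of the libraries, at 52.38, 129.4, 56.08 and 185.2 CPM for the controls and at 212.2, 155.3, 193.5 and 149.9 CPM for the knockouts. Controls 1 and 3 were low, controls 2 and 4 were near or within the range of the knockouts, and the groups overlapped. The log2 fold change of 0.75 (SE 0.37) did not pass the test (edgeR adjusted p = 0.207). Col1a2 showed the same pair of low controls, with 51.12, 103.0, 38.53 and 130.1 CPM in the controls and 198.2, 111.9, 149.7 and 135.0 CPM in the knockouts. Its log2 fold change was 0.88 (SE 0.35, edgeR adjusted p = 0.126). Without control 4, the highest control for both, the edgeR adjusted p was 0.0477 for Col1a1 and 0.0494 for Col1a2, with log2 fold changes of 1.16 and 1.21. This was the only 1 of 17 other settings that called either chain. Without control 1 the log2 fold changes were 0.52 and 0.72 (edgeR adjusted p = 0.346 and 0.228). Without control 3 they were 0.54 and 0.65 (edgeR adjusted p = 0.392 and 0.230).

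Type III collagen, a homotrimer that forms mixed fibrils with type I, showed the same pair of low controls. Col3a1 lay at 53.7, 127.4, 57.85 and 152.3 CPM in the controls and at 208.9, 106.8, 144.9 and 131.5 CPM in the knockouts. Knockout 2 was below controls 2 and 4, and the log2 fold change of 0.60 (SE 0.34) did not pass the test (edgeR adjusted p = 0.281).

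Type V collagen sits inside type I fibrils and limits their diameter. Col5a2 differed from the other fibrillar chains in the evenness of its controls, which stood at 17.09, 14.36, 15.44 and 17.52 CPM, against 21.45, 19.08, 29.45 and 20.8 CPM in the knockouts. Every knockout library was above every control library, but the log2 fold change of 0.50 (SE 0.16) missed the threshold (edgeR adjusted p = 0.0652). DESeq2 put it at an adjusted p of 0.0291, the only 1 of 17 other settings that called it. Col5a1 (28.6 ± 13.2 CPM in controls and 39.2 ± 5.62 CPM in knockouts, SD, n = 4) and Col5a3 (11.7 ± 3.19 and 12.9 ± 1.05 CPM) overlapped between the groups.

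The remaining fibrillar chains were Col27a1, a chain known from cartilage, with 53.8 ± 19.1 CPM in controls and 56.3 ± 7.52 CPM in knockouts (SD, n = 4), and the scarce Col11a2 and Col24a1, each under 1.5 CPM in every library. Their log2 fold changes were 0.07, -0.25 and -0.59, none of which passed the test. Of the 9 fibrillar chains, 0 were called, and 2 were higher at an unadjusted p under 0.05 in edgeR, where 14.5% of all genes tested were higher. Summed over the class, fibrillar chains held 396 ± 182 CPM in controls and 607 ± 105 CPM in knockouts (SD, n = 4), and the ranges of 230.5 to 605.1 and 502.5 to 742.6 CPM overlapped.

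Basement membrane chains were the most abundant collagens of these kidneys. By TPM, Col18a1 (167 ± 28.4 in controls and 137 ± 33.8 in knockouts, SD, n = 4), Col4a1 (126 ± 22.9 and 121 ± 31.1) and Col4a2 (82.0 ± 14.6 and 90.1 ± 26.7) held the top places in this order in both groups. Mean ± SD overlapped between Col18a1 and Col4a1 in both groups, and between Col4a1 and Col4a2 in the knockouts but not in the controls. The first fibrillar chain, Col1a1, came next in both, at 32.5 ± 17.4 TPM in controls and 57.9 ± 7.498 TPM in knockouts.

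Col4a1 and Col4a2, which together form the common type IV network, lie head to head on mouse chromosome 8 and are transcribed away from each other. Their RefSeq transcripts overlap at their 5′ ends, so that both hold the 22 bases chr8:11312805-11312826 (GRCm38.p6), shown here as read on the plus strand because they are the whole of the shared stretch.
Between the Col4a2 and Col4a1 start sites: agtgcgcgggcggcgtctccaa
The library kit does not mark strand, so reads in such a shared stretch cannot be assigned to a gene, though it makes up only 0.295% of the Col4a1 exons and 0.332% of the Col4a2 exons in GENCODE M21. Col4a1 stood at 437.5, 408.0, 357.9 and 558.1 CPM in the controls and at 372.4, 328.7, 499.1 and 433.3 CPM in the knockouts. Col4a2 stood at 294.1, 259.2, 230.3 and 331.7 CPM and at 240.6, 248.4, 378.1 and 311.9 CPM. The libraries kept nearly the same order for both genes, and the groups overlapped throughout. The log2 fold changes were -0.11 (SE 0.17) and 0.08 (SE 0.17), with edgeR adjusted p-values of 0.724 and 0.8002. Both signs changed under some other settings.

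Col4a3 and Col4a4, the neighbouring genes of the glomerular network, whose loss causes Alport syndrome, stood above every control in knockouts 2, 3 and 4. Col4a3 lay at 81.97, 74.9, 99.66 and 83.54 CPM in the controls and at 87.52, 125.4, 168.5 and 182.5 CPM in the knockouts. Knockout 1 was within the range of the controls. The log2 fold change of 0.73 (SE 0.21) was just past the threshold (edgeR adjusted p = 0.0483), and the call was lost on leaving out any library but knockout 1, with adjusted p-values of up to 0.133. An antisense gene shares 5.65% of the Col4a3 exon bases in GENCODE M21, and reads there cannot be told apart.

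Col4a4 held 73.66, 77.15, 81.58 and 79.42 CPM in the controls and 66.47, 124.0, 140.6 and 145.1 CPM in the knockouts. The controls were nearly level, with a coefficient of variation of 4.34%, and knockout 1 was the lowest of all 8 libraries. Its log2 fold change was 0.61 (SE 0.21, edgeR adjusted p = 0.0847), and without knockout 1 it was 0.81 with an edgeR adjusted p of 0.00404. Col4a4 was called in 3 of 17 other settings.

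Col4a5, the X-linked partner of the same network, stood at 30.13, 18.4, 25.75 and 16.94 CPM in the controls and at 20.98, 26.35, 28.52 and 31.89 CPM in the knockouts. Col4a6, which with Col4a5 forms the network of Bowman's capsule and some tubules, held 2.754, 2.785, 2.443 and 2.138 CPM and then 3.851, 5.212, 2.285 and 2.964 CPM. The groups overlapped for both, and the log2 fold changes of 0.24 (SE 0.20) and 0.50 (SE 0.29) did not pass the test (edgeR adjusted p = 0.475 and 0.281).

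Types XV and XVIII, the multiplexins, carry heparan or chondroitin sulfate chains and anchor basement membranes to the matrix beneath. Col15a1 lay at 25.35, 49.5, 23.62 and 53.77 CPM in the controls and at 53.98, 34.28, 43.98 and 52.81 CPM in the knockouts (log2 fold change 0.28, SE 0.28, edgeR adjusted p = 0.542). Col18a1, whose chain is the source of endostatin, held 513.3, 457.4, 561.7 and 489.8 CPM in the controls and 348.8, 357.0, 423.9 and 479.0 CPM in the knockouts. Col18a1 was below the lowest control in 3 of 4 knockouts, and its log2 fold change was -0.33 (SE 0.14, edgeR adjusted p = 0.143). After removal of the trends of each library with gene length and GC content, it was called lower, at -0.47 (edgeR adjusted p = 0.0157).

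Type VI collagen held the most stable calls of the family. Col6a1 stood at 10.4, 21.37, 9.239 and 22.67 CPM in the controls and at 52.58, 32.37, 46.6 and 44.51 CPM in the knockouts. Every knockout library was above every control library, and the mean was 2.77 times as high. The log2 fold change was 1.47 (SE 0.30, edgeR adjusted p = 0.0126), and the call was kept in all 17 other settings, with log2 fold changes from 1.28 to 1.69. Col6a2 followed with 5.733, 16.05, 7.273 and 15.9 CPM in the controls and 41.71, 26.06, 33.12 and 32.48 CPM in the knockouts. The groups were apart here too, at a ratio of 2.97 (log2 fold change 1.57, SE 0.33, edgeR adjusted p = 0.0138), and the call was kept in 16 of 17 settings. For both chains controls 2 and 4 were the higher controls and knockout 2 was the lowest knockout.

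The chain of Col6a3, which is the longest of the type VI trimer and from which endotrophin is released, held 18.32, 32.57, 16.48 and 42.17 CPM in the controls and 54.3, 37.7, 57.01 and 57.49 CPM in the knockouts. Knockout 2 was below control 4, and the log2 fold change of 0.92 (SE 0.29) missed the threshold (edgeR adjusted p = 0.0619), while DESeq2 gave an adjusted p of 0.0159. Without control 4 the edgeR adjusted p was 0.0232. These were the only 2 of 17 other settings that called Col6a3, and its log2 fold change ran from 0.70 to 1.20 over them all. Col6a6, another possible partner of Col6a1 and Col6a2, was uneven between libraries of both groups: it had 0, 277, 394 and 387 counts in the controls and 141, 715, 707 and 16 counts in the knockouts. The 0 in control 1 allows up to 3 counts, or 0.0905 CPM by that library's total. Its log2 fold change of 0.52 had an SE of 1.11.

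Fibril-associated collagens bind the surface of fibrils and do not form fibrils themselves. Col14a1, a chain of the fibroblast matrix, stood at 4.665, 11.26, 3.903 and 11.47 CPM in the controls and at 24.15, 13.72, 22.71 and 19.83 CPM in the knockouts. All 4 knockouts were above all 4 controls, and the log2 fold change was 1.36 (SE 0.36, edgeR adjusted p = 0.0342). The call was kept in 8 of 17 settings and in 3 of the 8 that left out a library, those without control 2, control 4 or knockout 2, with adjusted p-values of up to 0.0836 in the rest of these. Col12a1 (13.8 ± 2.29 CPM in controls and 14.6 ± 1.68 CPM in knockouts, SD, n = 4), Col16a1 (16.4 ± 10.9 and 20.2 ± 4.39 CPM) and Col20a1 (1.84 ± 0.784 and 1.61 ± 0.478 CPM) overlapped between the groups.

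Transmembrane collagens are anchored in the cell surface and can be shed. Col23a1 had the largest fold change of the 31 chains, from a low level: 0.3653, 2.503, 0.8705 and 1.198 CPM in the controls, or 13 to 80 counts, and 8.061, 5.096, 3.159 and 4.416 CPM in the knockouts, or 112 to 224 counts. Control 2 and knockout 3 came nearest to each other, and the groups did not overlap. The log2 fold change was 2.07 (SE 0.52, edgeR adjusted p = 0.0284), it was 2.67 without control 2, and the call was kept in 10 of 17 settings. It was lost without control 3, control 4, knockout 1, knockout 2 or knockout 4, with adjusted p-values of up to 0.0780. Col13a1, a membrane collagen of neuromuscular and other cell contacts, held 1.1 ± 0.359 CPM in controls and 2.03 ± 0.429 CPM in knockouts (SD, n = 4), with no overlap and no call (log2 fold change 0.88, SE 0.33, edgeR adjusted p = 0.108). Col17a1, the hemidesmosomal collagen of epithelia, was the lowest by fold change, at -0.64 (SE 0.66), with 8 to 87 counts per library and no call.

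Col26a1, an Emilin-related chain, stood at 2.304, 3.567, 3.033 and 4.081 CPM in the controls and at 6.586, 8.021, 7.221 and 4.712 CPM in the knockouts. All knockouts were above all controls, with knockout 4 closest to them, and the log2 fold change was 1.03 (SE 0.25, edgeR adjusted p = 0.0253). The call was kept in 11 of 17 settings, and lost without control 3, knockout 2 or knockout 3, with adjusted p-values of up to 0.0749. The remaining other chains were Col8a1 (log2 fold change 0.05, SE 0.40) of vessel walls and Col7a1 (-0.45, SE 0.30), the anchoring fibril collagen, and neither was called. Of the 14 other chains, 5 rose, where edgeR called 6.45% of all genes tested higher. The summed level of the 14 chains did not overlap between the groups, at 81.19 to 169.8 CPM in controls and 187.7 to 239.2 CPM in knockouts. Within that sum, the 4 type VI chains held 62.6 ± 27.9 CPM in controls and 141 ± 18.5 CPM in knockouts (SD, n = 4).

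As a share of collagen TPM, basement membrane chains held 73.7% ± 8.34 in controls and 61.2% ± 6.002 in knockouts (SD, n = 4), fibrillar chains 20.4% ± 6.86 and 28.5% ± 5.14, and other chains 5.92% ± 1.49 and 10.3% ± 0.880. The shares of the other chains did not overlap, at 4.464% to 7.284% against 9.564% to 11.51%, and those of the basement membrane chains only just did not, at 66.21% to 81.84% against 52.49% to 66.11%, while those of the fibrillar chains overlapped. Of all collagen TPM, types XV and XVIII held 30.8% ± 5.60 in controls and 21.6% ± 2.09 in knockouts, and type IV 42.9% ± 4.02 and 39.6% ± 4.81 (SD, n = 4). Shares within the family move together by construction, so a higher share of 1 class lowers the others.

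**Figure D3:**
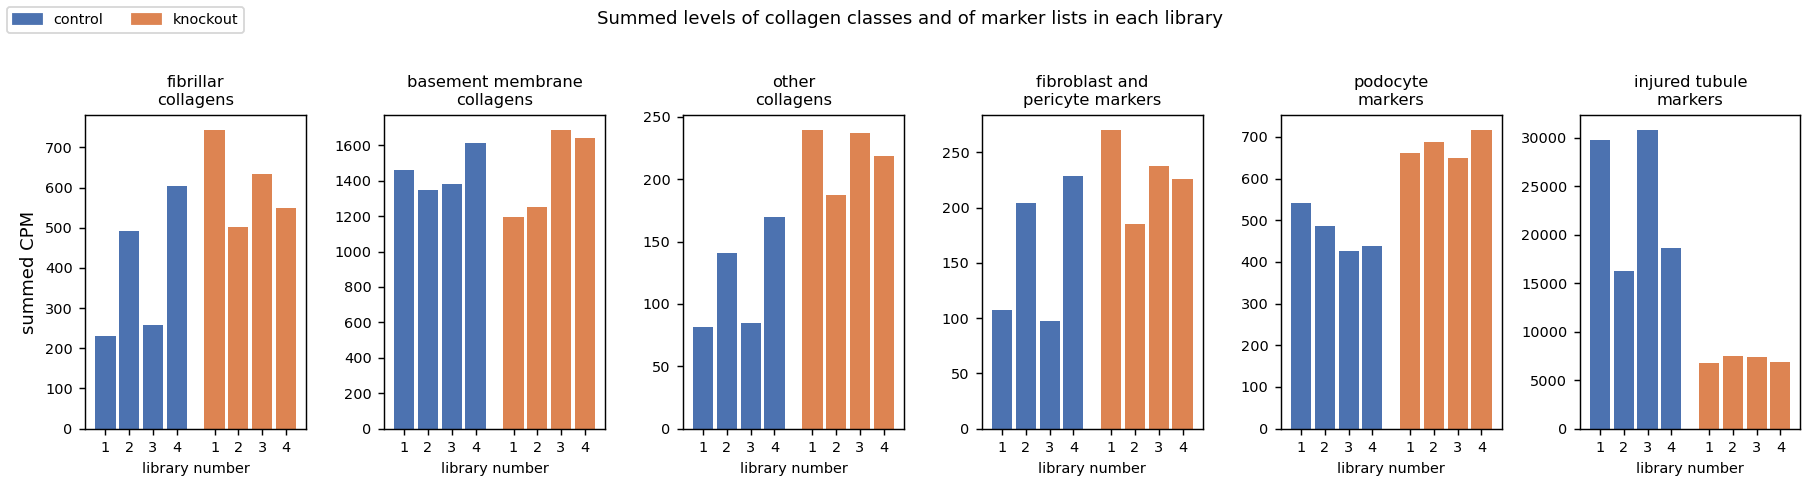
Summed CPM in each library for the 3 collagen classes and for 3 lists of marker genes, with controls in blue and knockouts in orange, each axis starting at 0. Controls 1 and 3 are low and controls 2 and 4 high for fibrillar chains, other chains and fibroblast markers, and the order is reversed for injured tubule markers.

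The controls differed among themselves in a shared pattern. Controls 2 and 4 were the highest pair of controls for 15 of the 31 chains, 6 of 9 fibrillar, 1 of 8 basement membrane and 8 of 14 other chains, while controls 1 and 3 were the highest pair for 4. Col1a1 differed by 3.54 times between its highest and lowest control, Col6a1 by 2.45 times, and Col4a4 by 1.11 times. For markers of fibroblasts and pericytes, 13 of 13 measured, controls 2 and 4 were the highest pair for 10, the exceptions being Lum, Meg3 and Scara5. Their summed level was 107, 204, 97.9 and 229 CPM in the controls and 270, 185, 238 and 226 CPM in the knockouts. Of these 13 markers 1 rose, Scara5, where edgeR called 6.45% of all genes tested higher. The platelet-derived growth factor receptor Pdgfra, which marks fibroblasts, had 8.937, 18.9, 8.34 and 23.32 CPM in the controls and 17.69 to 30.19 CPM in the knockouts, with no call. The pattern was not particular to fibroblast markers. Controls 2 and 4 also had the highest sums of endothelial markers (654.8, 883.6, 384.1 and 892.4 CPM in control order). The same held for myofibroblast and smooth muscle markers and for proximal tubule markers, but not for podocyte, macrophage, distal nephron or injured tubule markers. The order of controls was not counted gene by gene for other lists or for all genes tested. The part of fibroblast number in the collagen differences was not tested.

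Some other marker lists differed between the groups as well. Their counts, here and in the next paragraph, stand beside 6.45% of all genes tested called higher by edgeR and 6.28% called lower. The sum of 14 injured tubule markers was 16230 to 30790 CPM in the controls and 6754 to 7453 CPM in the knockouts, and 10 of 14 fell, among them Havcr1, the kidney injury molecule (log2 fold change -2.45, SE 0.23, edgeR adjusted p = 0.00058). Controls 1 and 3, with the lowest fibrillar collagen, had the highest injured tubule sums. Most of each injured tubule sum was Spp1, at 10480 to 21950 CPM in controls and 4143 to 5232 CPM in knockouts, which was called lower. Of 13 proximal tubule markers 4 rose and 1 fell, with sums of 11630 to 24110 and 24350 to 34600 CPM. Most of that sum was Kap, at 7686 to 15530 CPM in controls and 14910 to 26070 CPM in knockouts, which overlapped and was not called. The sum therefore says little about the other proximal tubule markers. Of 12 loop of Henle and distal nephron markers 10 rose, with 2688 to 4724 and 8719 to 9232 CPM. Of 16 immediate early and heat shock genes, which can respond to tissue handling, 8 fell, with sums of 3390 to 4094 and 2277 to 2856 CPM. Most of that sum was Hspa8, at 2149 to 3110 CPM in controls and 1700 to 2286 CPM in knockouts, which overlapped and was not called. No marker of these lists was at 0 in all libraries, and their part in the collagen differences was not tested.

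Beside Col4a3 and Col4a4, 6 of 9 podocyte markers rose, including Podxl, Synpo, Clic5 and Tcf21, and the list's sum was 425 to 540 CPM in the controls and 649 to 716 CPM in the knockouts. Knockout 1, the low library for Col4a3 and Col4a4, had a podocyte sum of 662 CPM, within the range of the other knockouts. Of 12 endothelial markers 3 rose (Tek, Kdr and Ptprb), with sums of 384 to 892 CPM and 885 to 1050 CPM. For myofibroblast and smooth muscle markers 0 of 8 were called, and the sums of 160 to 333 and 246 to 368 CPM overlapped. Of 12 macrophage and monocyte markers 2 fell, Itgam and Ccr2, with sums of 201 to 341 CPM and 223 to 370 CPM. No parietal epithelial (5 measured), urothelial (7) or adipocyte (6) marker was called. Skeletal muscle had 1 marker measured and 3 of 6 at 0 in all libraries, with none called, and of 2 measured cartilage and bone markers Comp rose while 2 of the 8 listed were at 0 in all libraries. The part of these cell types was not tested.

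Chains of the same trimer, or of neighbouring collagen types and networks, were next compared with each other within each library, by the ratio of counts per gene length, which needs no scaling between libraries. The smallest p that the two-sided exact permutation test can give with 4 against 4 libraries is 0.0286, and the p-values were adjusted over the 10 ratios. Col6a3 over Col6a1 was 0.646, 0.559, 0.654 and 0.682 in the controls and 0.379, 0.427, 0.449 and 0.474 in the knockouts. Every knockout was below every control, with geometric means of 0.633 and 0.431 (log2 difference -0.56, exact p = 0.0286, adjusted p = 0.190). Both genes had positive fold changes, and that of Col6a1 was the larger.

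Col4a3 over Col4a1, which sets a chain of the glomerular network against a chain of the common network, was 0.144, 0.142, 0.215 and 0.115 in the controls and 0.181, 0.294, 0.260 and 0.325 in the knockouts. The counts behind it are over all kidney cells and not over glomeruli alone. Knockout 1 fell below control 3, and the log2 difference was 0.79 (exact p = 0.0571, adjusted p = 0.190). Col4a1 over Col4a2 was 1.45 to 1.64 in the controls and 1.28 to 1.51 in the knockouts (log2 difference -0.18, exact p = 0.0571, adjusted p = 0.190). For the other 7 ratios the exact p was 0.2 or more. Col1a1 over Col1a2 was 1.13 in controls and 1.06 in knockouts as a geometric mean, and Col6a1 over Col6a2 was 2.19 and 1.99. No ratio passed the threshold after adjustment, and a p that misses it does not show that a ratio was equal in both groups.

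**Figure D4:**
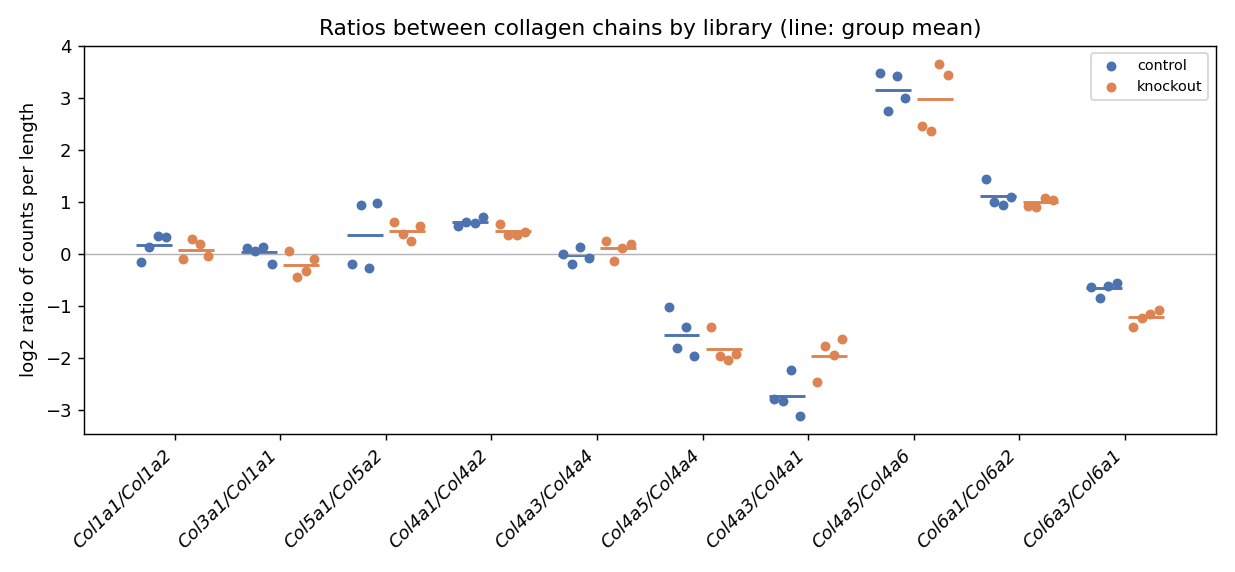
Log2 ratio of counts per length for 10 pairs of collagen chains, with a point for each library and a line at the group mean. Only Col6a3/Col6a1 has no overlap between controls and knockouts, and the pairs Col1a1/Col1a2 and Col4a3/Col4a4 lie near 0 in all libraries.

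Collagen chains are hydroxylated, glycosylated and folded in the endoplasmic reticulum before secretion. Of 23 measured enzymes and chaperones of these steps, 3 rose and 1 fell. Among all genes tested, edgeR called 6.45% higher and 6.28% lower. Those shares stand beside the counts of this list and of the gene lists that follow, and no list was tested as a set. The glycosyltransferase Colgalt2 rose from 7.33 ± 1.71 to 18.1 ± 1.22 CPM (SD, n = 4, log2 fold change 1.30 ± 0.18 SE, adjusted p = 0.0025 in edgeR). The prolyl 3-hydroxylase P3h2, which acts on type IV collagen, rose by 0.93 on the log2 scale (SE 0.17), and P3h4, a partner of lysyl hydroxylation, by 0.67 (SE 0.16). The multifunctional hydroxylase and glycosyltransferase Plod3 fell by 0.58 (SE 0.09), from 86.6 ± 4.98 to 58.0 ± 1.51 CPM. The collagen chaperone Serpinh1, with 217 to 404 CPM in controls and 217 to 406 CPM in knockouts, and the prolyl 4-hydroxylase subunit P4ha1 were not called (edgeR adjusted p = 0.735 and 0.286).

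Of 14 measured genes of procollagen processing and cross-linking, 2 rose and 1 fell. Pcolce, which enhances cleavage of the C-terminal propeptide of fibrillar procollagens, went from 102 ± 37.6 to 194 ± 20.9 CPM (SD, n = 4, log2 fold change 0.93 ± 0.25 SE, adjusted p = 0.0342 in edgeR). The N-propeptidase Adamts3 rose by 1.28 (SE 0.35), and the transglutaminase Tgm2, which cross-links matrix proteins, fell by 0.57 (SE 0.15). Lox, the lysyl oxidase that starts fibril cross-linking, stood at 2.21 ± 1.07 and 2.08 ± 0.470 CPM and was not called.

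Genes of collagen degradation went in both directions, with 2 of 10 higher and 2 lower. The gelatinase Mmp2 rose by 1.31 (SE 0.34) and the inhibitor Timp2 by 0.87 (SE 0.16), whereas the inhibitor Timp1 fell by 1.90 (SE 0.22), from 40.5 ± 9.13 to 10.9 ± 2.84 CPM (SD, n = 4, edgeR adjusted p = 0.0012), and the gelatinase Mmp9 fell by 2.71 (SE 0.58). Of 10 collagen receptors and uptake genes, the integrin subunit Itgb1 alone was called, and it fell by 0.65 (SE 0.16).

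Among 18 partners of collagen in basement membranes, 6 rose and 1 fell. Fras1, Frem2 and Frem1, components of the Fraser complex, rose by 0.80 (SE 0.10), 1.28 (SE 0.21) and 1.97 (SE 0.49), and the integrin ligand Npnt by 0.71 (SE 0.17). The laminin chain Lamb2 of the mature glomerular basement membrane rose from 42.8 ± 5.98 to 63.0 ± 8.46 CPM (SD, n = 4, log2 fold change 0.56, SE 0.14, edgeR adjusted p = 0.0262), and Nid2 was the sixth that rose. Lamb3, of the epithelial laminin, fell by 1.33 (SE 0.35).

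Of 17 proteoglycans and glycoproteins of collagen fibrils, 4 rose and 1 fell, with a median log2 fold change of 0.64. Those that rose were Prelp (1.84, SE 0.29), Fmod (2.36, SE 0.44), Fbln5 (1.59, SE 0.37) and Bgn (0.91, SE 0.26), which bind collagen or elastic fibres. Tenascin C, Tnc, which appears in wound matrix, fell by 1.32 (SE 0.30), from 58.5 ± 27.6 to 23.5 ± 6.42 CPM (SD, n = 4, edgeR adjusted p = 0.0208).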

How the data were processed

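RNA-seq counts were analysed for 8 kidney libraries, 4 per group, grouped by title and genotype label. The authors deposited whole-number counts per gene, with no normalization, and a gene length in bases. Salmon 1.10.2, HISAT2 2.2.1, Trim Galore 0.6.2 and the build mm39 appear in the submitters' processing notes, with FastQC; the tool that made the counts is not given in the sources used here, nor is the annotation. Even values made up 68.7% to 70.9% of counts from 1 to 20, against 49.5% to 50.4% of counts over 100, so both mates of a pair may have been counted. Genes were taken by symbol and the identifier column was not used. The annotation at hand is of GRCm38 and not mm39, and served for GC content, neighbouring genes, exon overlap and promoter windows.

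Computed here: edgeR 4.0.16 in R 4.3.3 with filterByExpr (minimum count 10), TMM factors, glmQLFit and glmQLFTest of knockout against control without covariates, and p-values adjusted by Benjamini-Hochberg over 15000 genes, with a call at an adjusted p under 0.05. SE were derived from the F statistic. CPM carry TMM factors, TPM used the deposited lengths, and chain ratios used a pseudocount of 0.5 counts and a two-sided exact permutation test over 70 assignments. The fit was tested on simulated data with known changes. Alternatives were DESeq2 1.42.0, limma 3.58.1 voom with quality weights, other size factors, no filter, loess removal of length and GC trends (span 0.3, with a GC value for 98.4% of genes tested and all 31 chains), a replicate block, and leaving libraries out. Values per library are given for chains called and for 14 chains of types I, III, IV, VI, XV and XVIII, other chains are given by mean ± SD, ranges or fold changes, and of each of 20 gene lists up to 4 called members by smallest p, with Serpinh1, P4ha1, Lox, Foxo1 and Havcr1 always. Frem1, Lamb3, Nid2, Bgn, Col5a2, Col13a1, Col6a6, Pdgfra, Lum, Meg3, Lyz2 and a few chains named to complete a count were added after their values were seen. The members and lists were chosen with earlier results of these data known.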

Additional observations from a re-analysis of the deposited data

Results flagged for a closer look

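In each group of 4 libraries and each of the 31 chains, 62 groups in all, the highest or lowest library was checked for its distance from the other 3, and 2 libraries stood apart; chance alone gives about 1 in 20 groups. Col6a3 in knockout 2 was 37.7 CPM, below 54.3, 57.01 and 57.49 CPM in the other knockouts, a gap of 0.839 of the group's range, and knockout 2 also had the lowest value of the 4 knockouts for Col6a1, Col6a2 and Col14a1. Col8a1 in control 4 was 8.227 CPM, above 4.437, 4.724 and 4.777 CPM in the other controls, a gap of 0.91 of the range; the knockouts for this chain spread from 2.483 to 9.534 CPM.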

How the results depend on the processing

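Of 526 comparisons of a chain's fold change with its value under another setting, 458 kept their direction and their side of the threshold, 32 lost a call, 10 gained one and 26 changed sign. All 26 were uncalled chains. Most comparisons were of uncalled chains, and only the 6 chains called had a call to lose. Of 17 settings, Col6a1 kept its call in 17, Col6a2 in 16, Col26a1 in 11, Col23a1 in 10, and Col14a1 and Col4a3 in 8 each. The number of genes changed, 1909, was 2997 with DESeq2, 1045 without control 1 and knockout 3, and 907 to 1984 with a library left out (1058 without control 3, 1050 without knockout 2, 1139 without knockout 3, 907 without knockout 4). The 6 chains called higher became 3 without control 1 and knockout 3 (Col6a1, Col6a2 and Col23a1) and 2 to 7 with a library left out: 2 without control 3, and 3 each without knockout 2, 3 or 4. Control 1 and knockout 3 had the lowest Lyz2, at 2.276 and 0.3667 CPM, against 25.43 to 50.37 CPM in the other libraries. The cause of their low Lyz2 was not tested. The call of Col6a2 was lost with the length and GC trends removed together with the replicate block (edgeR adjusted p = 0.0587). With those trends removed, Col18a1 was 1 chain called lower, also with the replicate block, where 2 chains were called higher; collagen genes are longer (median 6450 against 2996 bases) and richer in GC (56.2% against 49.9%) than genes tested. Replicate numbers gave no sign of pairing (correlations of same-numbered deviations of -0.198, 0.0358, 0.153 and -0.161), and no library correlated best with its own number. With the replicate block alone 865 genes and 2 chains, Col6a1 and Col6a2, were called.

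Chains whose sign changed were as follows, as log2 fold changes. With voom, Col24a1 was 0.46 and Col6a6 -0.24. With trends removed, Col27a1 was -0.105 (-0.021 with the block), Col4a2 -0.070 (-0.0761) and Col12a1 -0.0307 (-0.0272); Col8a1 was -0.0839 with the block and -0.0779 with both. Without control 1 and knockout 3, Col27a1 was -0.18, Col4a2 -0.036, Col6a6 -0.29 and Col8a1 -0.37, and Col24a1 was not tested. With a library left out, Col5a3 ran from -0.00073 to 0.27, Col11a2 from -0.38 to 0.0222, Col27a1 from -0.17 to 0.19, Col4a1 from -0.22 to 0.0256, Col4a2 from -0.0623 to 0.17, Col12a1 from -0.0219 to 0.17 and Col8a1 from -0.31 to 0.31. The log2 difference of Col5a1 over Col5a2 ran from -0.13 to 0.29, that of Col4a5 over Col4a6 from -0.40 to 0.0328 and that of Col6a3 over Col6a1 from -0.62 to -0.50, where the smallest possible p is 0.0571. Depth limits the scarce chains, such as Col24a1 with 2 to 31 counts per library.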

Other observations

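The 13 collagen chains under the count threshold had 0 to 73 counts in total. Col9a1, a cartilage chain, had 0 counts in all 8 libraries. Col2a1, the main collagen of cartilage, had 10 counts, Col10a1, a chain of hypertrophic cartilage, 8, and Col11a1 had 16, 12 of them in 1 library. Col6a4, Col9a3, Col19a1 and Col8a2 had 58 to 73 counts, and Col25a1, a membrane collagen known from neurons, had 38.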
